A study of Rattus norvegicus with 2 samples.

Results

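Gut hormones and neuropeptides were examined at every probe set of the rat U34A array, an Affymetrix oligonucleotide array, that its annotation assigns to Cck, Gip, Sct, Sst, Nts, Pyy, Gcg, Tac1, Chga or Chgb. This gave 13 of the 8799 probe sets and 8 of the 4736 genes named by a probe set. The annotation used here assigned none to Nts or to Chga, so neurotensin and chromogranin A are not analysed here. The arrays carried biotin-labelled total RNA of the duodenum from male Wistar rats aged 15 weeks. One rat had spent 2 weeks in an immobilization cage, and the control had spent the same 2 weeks in a metabolic cage without being immobilized. Each group is 1 array, for which the labels describe a single rat, so there is no replicate check. How far rats of one group differ is unknown, and no test was made. The labels describe the material both as mucosa and as epithelial cells, and whether RNA was pooled is not given in the sources used here.

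Enteroendocrine cells are scattered singly through the gut epithelium and release peptide hormones when nutrients, acid or bile reach them. Cholecystokinin, glucose-dependent insulinotropic polypeptide and secretin come mainly from the upper small intestine, and peptide YY and the proglucagon peptides mainly from the ileum and colon. Somatostatin restrains the release of most of the others, and tachykinins such as substance P act in nerves and some endocrine cells of the gut wall. All are made as precursors that are cut and packed, together with granins such as chromogranin B, into dense-core granules.

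The deposited values are signal intensities, 1 per probe set and array. The signals of the immobilized rat were scaled by a factor of 1.016, which brings the log2 ratios above a signal floor to a median of 0. The floor was the 50th percentile of all signals, 39.9 units, and a ratio was taken only where both arrays exceeded it. Of the 13 probe sets, 8 exceeded the floor on both arrays and 5 on neither. These 8 covered 6 genes, Cck, Gip, Sct, Sst, Tac1 and Chgb, whereas Pyy and Gcg lay below the floor on both arrays. Over the whole array, 53.3% of 4736 genes exceeded it on both. The labelled tissue was checked against 10 measured genes of villus enterocytes, all of which exceeded the floor in both rats, with signals of at least 2185 units in the control rat.

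Promoters of measurable genes are shown here as description only, and no link between their letters and the ratios was tested. The RefSeq table for the GRCr8 build held entries for 4 of the 6, namely Sst, Tac1, Gip and Chgb. Each sequence runs from 250 bases before the annotated start to 30 bases after it, 5′ to 3′ along the gene. Capitals mark matches on either strand to 5 motifs. The cyclic AMP response element was searched as TGACGTCA and its core, which the full element contains, as TGACG. The TATA box was searched as TATAAA. The core bound by GATA factors was searched as GATAA. A core bound by homeodomain factors was searched as TAATTA.
Sst, chr11:90461296-90461575, + strand: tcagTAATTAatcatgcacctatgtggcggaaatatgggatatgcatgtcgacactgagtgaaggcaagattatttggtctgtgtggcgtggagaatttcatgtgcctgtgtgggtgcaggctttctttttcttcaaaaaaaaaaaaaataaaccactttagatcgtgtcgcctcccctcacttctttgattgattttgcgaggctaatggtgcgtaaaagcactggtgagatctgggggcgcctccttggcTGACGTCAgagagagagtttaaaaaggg
Tac1, chr4:36645333-36645612, + strand: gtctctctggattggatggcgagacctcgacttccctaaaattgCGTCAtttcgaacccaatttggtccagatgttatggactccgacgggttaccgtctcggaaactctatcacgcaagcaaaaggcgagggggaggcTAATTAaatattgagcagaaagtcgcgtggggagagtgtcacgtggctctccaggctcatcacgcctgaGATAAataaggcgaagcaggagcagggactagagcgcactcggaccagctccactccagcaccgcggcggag
Gip, chr10:81464820-81465099, + strand: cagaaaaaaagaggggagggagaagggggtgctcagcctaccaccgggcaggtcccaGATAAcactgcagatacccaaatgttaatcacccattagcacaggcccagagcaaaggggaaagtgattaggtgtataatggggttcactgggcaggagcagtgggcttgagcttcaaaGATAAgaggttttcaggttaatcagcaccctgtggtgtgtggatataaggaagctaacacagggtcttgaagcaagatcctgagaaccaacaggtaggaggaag
Chgb, chr3:140496462-140496741, + strand: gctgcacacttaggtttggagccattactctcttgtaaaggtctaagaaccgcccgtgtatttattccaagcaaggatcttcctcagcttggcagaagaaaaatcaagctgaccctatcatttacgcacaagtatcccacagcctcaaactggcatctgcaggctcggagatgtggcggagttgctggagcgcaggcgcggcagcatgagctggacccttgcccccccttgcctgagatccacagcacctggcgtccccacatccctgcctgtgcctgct

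The Sst sequence held a complete cyclic AMP response element that begins at base 3 counted from the annotated start. All positions rest on the RefSeq start, and whether transcription begins there in these rats was not tested. The element was present in 1.78% of 33469 RefSeq promoter windows of the same 280 bases. The Tac1 sequence held the core without the full element, on the reverse strand at 206 bases before the start. The core, with or without the full element, stood in 20.2% of all windows. The homeodomain core was found in Sst and in Tac1, against 5.17% of all windows. The GATA core was found at 193 and 74 bases before the start in Gip and at 42 bases before it in Tac1, against 25.3% of all windows. The exact letters TATAAA, held by 13.7% of all windows, were found in none of the 4. Variant TATA boxes were not searched, so their absence is not shown. The Chgb sequence held none of the 5 motifs. These matches are letters in a window and were not tested as binding sites.

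Among the upper intestinal hormones, Cck and Sct were lower in the immobilized rat and Gip was slightly higher. Cck, whose product empties the gallbladder and drives pancreatic enzyme secretion, gave 427 units in the control rat and 302 in the immobilized rat. This is 1.41-fold lower, a log2 ratio of -0.50, and the largest decrease among the 6 genes. Sct, which encodes the hormone that calls forth pancreatic and duodenal bicarbonate, gave 303 and 250 units, 1.21-fold lower with a log2 ratio of -0.28. Gip, the incretin gene of K cells, gave 926 and 1027 units at probe set D11439_s_at, 1.11-fold higher with a log2 ratio of 0.15. A further Gip probe set, L08831_i_at, gave 124 and 148 units, a log2 ratio of 0.26. The third, M92916_at, stayed below the floor with 20.8 and 38.3 units. The Gip probe sets above the floor lay on the same side of 0 and 0.11 apart. The letter i in a suffix marks an incomplete set of probes, and the letter s marks probes that match more than one database sequence, which limits both Gip values.

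Sst, the gene of the inhibitory hormone somatostatin, was higher in the immobilized rat at both of its probe sets, by amounts that differed. Probe set M25890_at gave 507 units in the control rat and 664 in the immobilized rat, 1.31-fold higher with a log2 ratio of 0.39. Probe set K02248cds_s_at gave 105 and 238 units, 2.26-fold higher with a log2 ratio of 1.17. The latter was the only one of the 8 probe sets above the floor to differ by 2-fold, and over the array 2.34% of 4105 probe sets above the floor were at least 2-fold higher. The ratios of the Sst probe sets were 0.78 apart on the log2 scale, a gap matched or exceeded in 9.77% of 696 genes with several probe sets above the floor, where the median gap was 0.28. The larger value comes from a probe set with the suffix letter s, as do the values of Gip D11439_s_at and of Tac1.

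**Figure D1:**
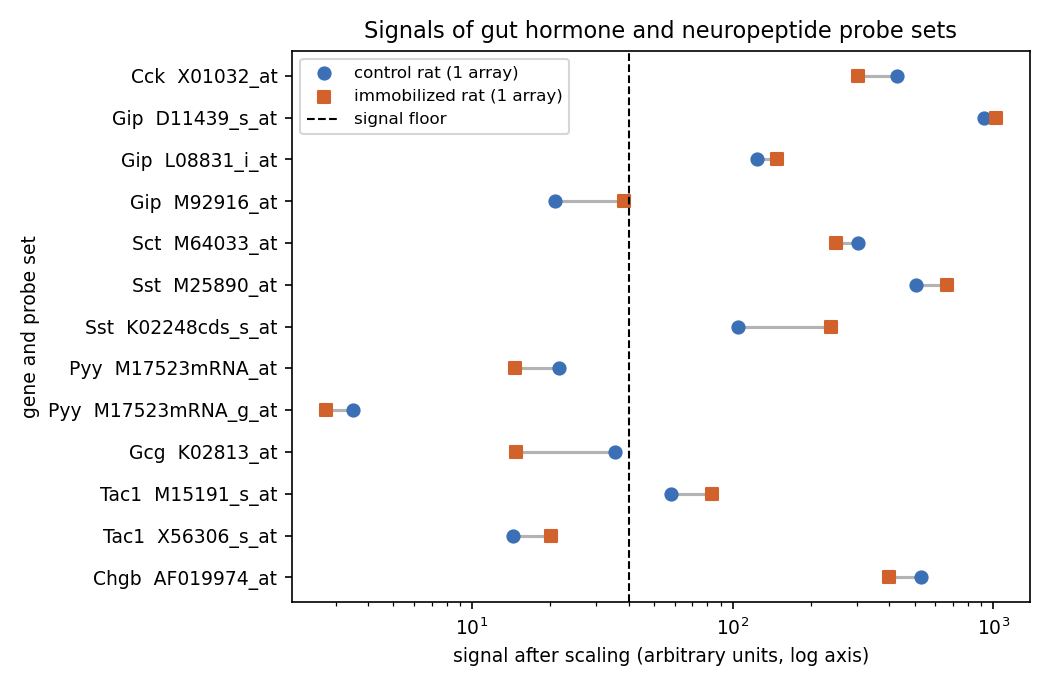
Scaled signals of the 13 probe sets on a log axis, with circles for the control rat, squares for the immobilized rat and a dashed line at the floor of 39.9 units. Cck, Sct and Chgb lie lower in the immobilized rat, both Sst probe sets lie higher, and the Pyy and Gcg probe sets lie left of the floor on both arrays.

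The hormones of the lower gut were not measurable at this floor. Gcg, the proglucagon gene that yields the glucagon-like peptides in L cells, gave 35.5 units in the control rat and 14.7 in the immobilized rat. Pyy, the gene of the ileal brake hormone peptide YY, gave 21.5 and 14.6 units at one probe set and 3.50 and 2.74 at the other. All of these signals lie below the floor, so no fold is given for them. A lower floor at the 30th percentile, 12.6 units, let Gcg through with a log2 ratio of -1.26 and Pyy with one of -0.55.

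Tac1 and Chgb lay on opposite sides of 0. Tac1, the precursor gene of substance P and neurokinin A, gave 58.0 units in the control rat and 83.7 in the immobilized rat at probe set M15191_s_at. Its log2 ratio of 0.53, 1.44-fold higher, was the largest increase among the 6 genes where each stands by its brightest probe set on average over both arrays. That signal is not far above the floor, and the other Tac1 probe set, with 14.4 and 20.1 units, was below it. Chgb, the gene of the granule protein chromogranin B, gave 530 units in the control rat and 400 in the immobilized rat, 1.33-fold lower with a log2 ratio of -0.41.

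As a group the 6 genes divided evenly, 3 higher (Gip, Sst and Tac1) and 3 lower (Cck, Sct and Chgb). Of the 2524 genes that exceeded the floor on both arrays, 49.4% were higher and 50.6% lower. With each gene at its brightest probe set, none of the 6 reached 2-fold or 1.5-fold. Of all genes, 2.02% were at least 2-fold higher and 0.674% at least 2-fold lower. By at least 1.5-fold, 8.36% were higher and 4.87% lower. For Sst this rests on probe set M25890_at, since K02248cds_s_at was 2.26-fold higher. The median log2 ratio of the 6 was -0.06 and that of all genes -0.01. A floor at the 30th percentile, which admits Gcg and Pyy, moved the group median to -0.34, and one at the 70th, which drops Tac1, moved it to -0.27. The direction of each of the 8 probe sets was the same under the scalings, floors and pseudocount tried wherever it gave a value. All of these reuse the same 2 arrays, and a floor or pseudocount could hardly turn a sign.

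**Figure D2:**
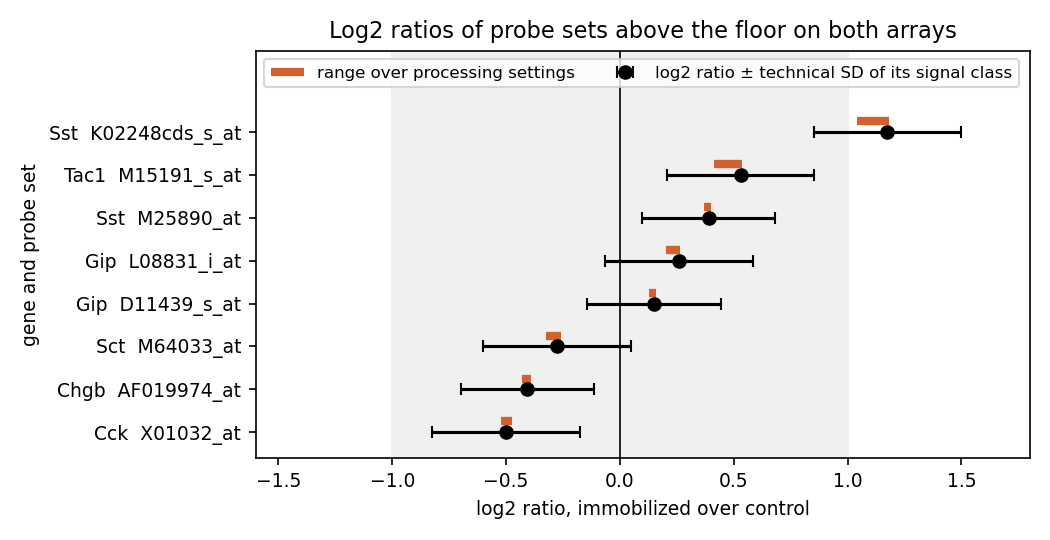
Log2 ratios, immobilized over control, of the 8 probe sets above the floor on both arrays. Points with bars are the ratio ± the technical SD of the signal class, thick lines the range over processing settings, and the grey band marks less than 2-fold. Only the Sst probe set at 1.17 lies outside the band.

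Error was gauged from how far probe sets of the same gene differ in their log2 ratio between the arrays. This technical SD was 0.31 on the log2 scale over 696 genes. Split into 3 equal classes by mean signal, it was 0.32 in the low and middle classes and 0.29 in the high class. It holds no spread between animals and no shift shared by all probe sets of a gene. Against the SD of its signal class, the ratio was 1.54 times as large for Cck, 1.39 times for Chgb and 0.85 times for Sct. It was 0.51 times for Gip, 1.63 times for Tac1, and 1.34 and 3.62 times for the Sst probe sets M25890_at and K02248cds_s_at. For Cck, 7.37% of the 841 genes of its signal class lay as low or lower, and for Chgb 9.98% of 842. For Tac1, 12.1% of the genes of its class lay as high or higher. For Sst this share was 10.6% at M25890_at, and 1.57% of the probe sets of its class lay as high as K02248cds_s_at. With each gene at its brightest probe set, none of the 6 lay beyond the outermost 7.17% of all genes on its side.

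**Figure D3:**
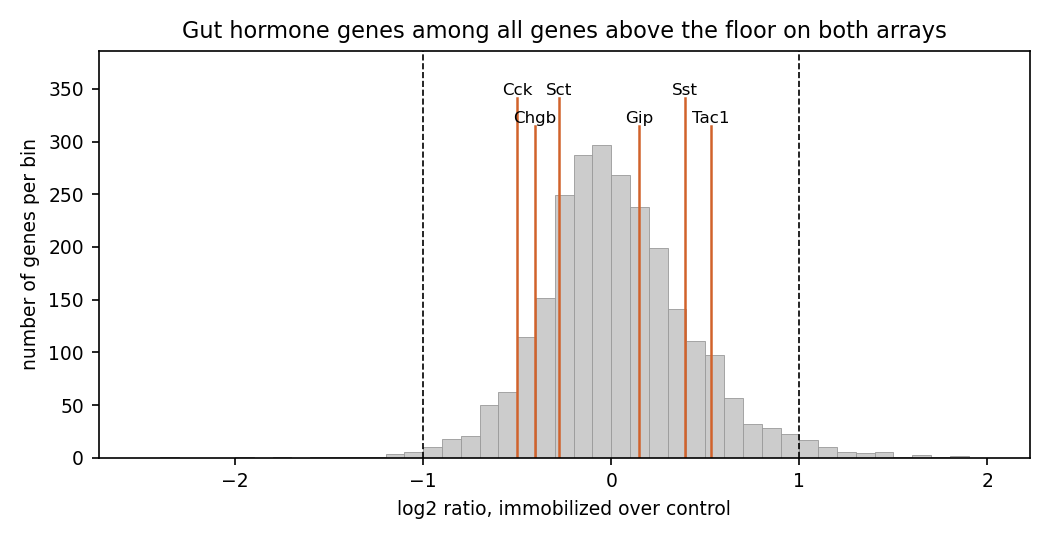
Number of genes per bin of 0.1 in the log2 ratio, immobilized over control, for the 2524 genes past the floor in both rats, with dashed lines at 2-fold. Orange lines mark the 6 hormone and neuropeptide genes, each at its brightest probe set, which lie between -0.50 and 0.53. The Sst probe set at 1.17 is not drawn.

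With each gene at its brightest probe set, the ratios of the 6 genes spanned 1.03 on the log2 scale, from Cck to Tac1. Sst lay 0.89 above Cck. These gaps were 2.24 and 2.04 times the technical SD of such a difference. Of the 15 pairs among the 6 genes, 3 lay more than 2 such SDs apart. Over all 2524 genes the ratios had an SD of 0.41. In bulk tissue, fewer cells of a type and less RNA per cell cannot be told apart.

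Genes that process and package peptide hormones, each at its brightest probe set, were lower more often than higher, by small amounts. A probe set was at hand for 23 of the 25 genes listed, and 10 exceeded the floor on both arrays. Of these, 3 were higher and 7 lower, none by 2-fold, while 50.6% of all genes were lower. Their median log2 ratio was -0.21 against -0.01 for all genes. The hybridisation spike-ins, added RNAs that carry no biology, had a median of the same size, -0.21, with 7 of 9 probe sets lower, and what this contributes to the list or to the lower hormone genes was not tested. Stx1a, a syntaxin of regulated exocytosis, had a log2 ratio of -0.33, although another of its probe sets had 0.09. Resp18, a granule protein of endocrine cells, had -0.32 (-0.07 at its other probe set). The carboxypeptidase Cpd had -0.31 and the granin-like precursor Vgf -0.27. Vamp2 had 0.06 at its brightest probe set but 0.80 at another. Cpe, the carboxypeptidase that trims prohormones, had 0.27, with 106 and 128 units. Several of the genes on the list, among them Cpd, Furin and Vamp2, are active in many cell types. The endocrine granule genes Scg2, Scg3 and Scg5 and the convertase gene Pcsk2 were below the floor on both arrays.

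Receptors for these peptides were at or below the floor almost throughout. Of 22 listed receptors 18 had a probe set, 1 exceeded the floor on both arrays, 3 on one array and 14 on neither. The one was Glp1r, the receptor of glucagon-like peptide 1, with 76.2 and 78.1 units and a log2 ratio of 0.03 that fell below 0 after quantile normalization. All 5 somatostatin receptor genes, Sstr1 to Sstr5, stayed below the floor, as did Gipr and Sctr. Of 18 transcription factors listed for a role in endocrine differentiation, whether promoting or restraining it, 10 had a probe set. At their brightest probe sets 3 exceeded the floor on both arrays, all with ratios below 0, while 50.6% of all genes were lower. The 3 were Hes1 (-0.22, and 0.04 at its other probe set), Pdx1 (-0.21) and Hnf4a (-0.03, with -0.62 to 0.02 over its probe sets). Their roles differ, and an effect on endocrine differentiation was not tested. Neurog3, the factor that commits progenitors to the endocrine fate, was below the floor with 1.40 and 2.95 units.

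Markers of other cell types that make or accompany these peptides were examined in the same arrays. Exocrine pancreas genes were higher in the immobilized rat for 13 of 13, while 49.4% of all genes were higher. Their log2 ratios ran from 0.11 to 1.82 with a median of 0.86. At least 2-fold higher were 5 of them, against 2.02% of all genes. The 5 were Ctrb1, Sycn, Clps, Gp2 and Amy2a3, the last coding for amylase, with 1591 and 3387 units. The summed signal of the 13 was 6966 in the control rat and 13239 in the immobilized rat, with no marker at 0. Pancreatic islets also make somatostatin. Of 7 islet markers with a probe set, 4 exceeded the floor on both arrays, 1 higher and 3 lower, with a median of -0.18. These were Ins2 (0.21), Ins1 (-0.52), Pdx1 (-0.21) and Slc2a2 (-0.16). The insulin ratios each rest on 1 bright probe set. The other probe sets gave at most 43.6 units for Ins1 and 7.93 for Ins2, so an insulin signal is doubtful. The summed signal of the 7 was 3251 and 2919 units, of which Slc2a2, a glucose transporter that enterocytes also express, gave 2290 and 2051, and Pdx1 is likewise active in duodenal epithelium. The islet genes Iapp (3.80 and 2.44 units) and Ppy (10.9 and 10.9 units) were below the floor, like the proglucagon gene. The part of pancreatic tissue in the higher Sst signals was not tested.

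Neuronal markers were considered because Tac1 is also a gene of enteric neurons. Of 14 neuron and glia markers with a probe set, 1 exceeded the floor on both arrays, 3 on one array and 10 on neither. Syn1, a synaptic vesicle gene, had a log2 ratio of -0.19. The summed signal of the 14 was 317 units in the control rat and 307 in the immobilized rat, with no marker at 0. Vip, a major neuropeptide of the gut wall, was at 11.3 and 12.9 units. Smooth muscle markers, which mark the deeper wall layers, were higher for 3 of 4 genes above the floor, against 49.4% of all genes. Their median was 0.55. Their summed signal was 331 and 619 units over 6 genes, of which Acta2 gave 90.3 and 289. Des was below the floor, at 10.3 and 9.45 units. Acta2, which was 3.20-fold higher, had a second probe set with a ratio of -0.13 on the log2 scale. The part of muscle or nerve in the Tac1 signal was not tested.

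Enteroendocrine markers gave little beyond the genes already described, since 2 of the 10 listed are Chga and Chgb themselves and 6 are also on the granule and processing list. Of the 8 with a probe set, 2 exceeded the floor on both arrays, Chgb lower and Cpe higher. The other 6, among them the serotonin synthesis gene Tph1 with 16.3 and 19.7 units, were below it. Villus enterocyte markers, each at its brightest probe set, were lower for 8 of 10 genes, while 50.6% of all genes were lower. Their median was -0.24 and their summed signal 55226 and 48552 units. The size of these ratios depended on the scaling. After quantile normalization Apoa1 went from -0.29 to -0.05, Alpi from -0.31 to -0.19 and Slc5a1 from -0.43 to -0.35. Fabp1 and Anpep, counted among the lower, turned above 0 after quantile normalization (0.11 and 0.17) and after loess (0.02 and 0.12). Whether a lower share of epithelium played a part in the lower signals of Cck, Sct and Chgb was not tested. Slc5a1, the sodium-glucose cotransporter, had the lowest ratio of the 10 enterocyte markers at -0.43. Lct, lactase, had the highest at 0.41 (close to 0 at its other probe set). Probe sets of some of these genes disagreed widely, with ratios from -2.05 to 0.25 for Apob, -1.66 to -0.28 for Si and -0.74 to -0.01 for Anpep.

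**Figure D4:**
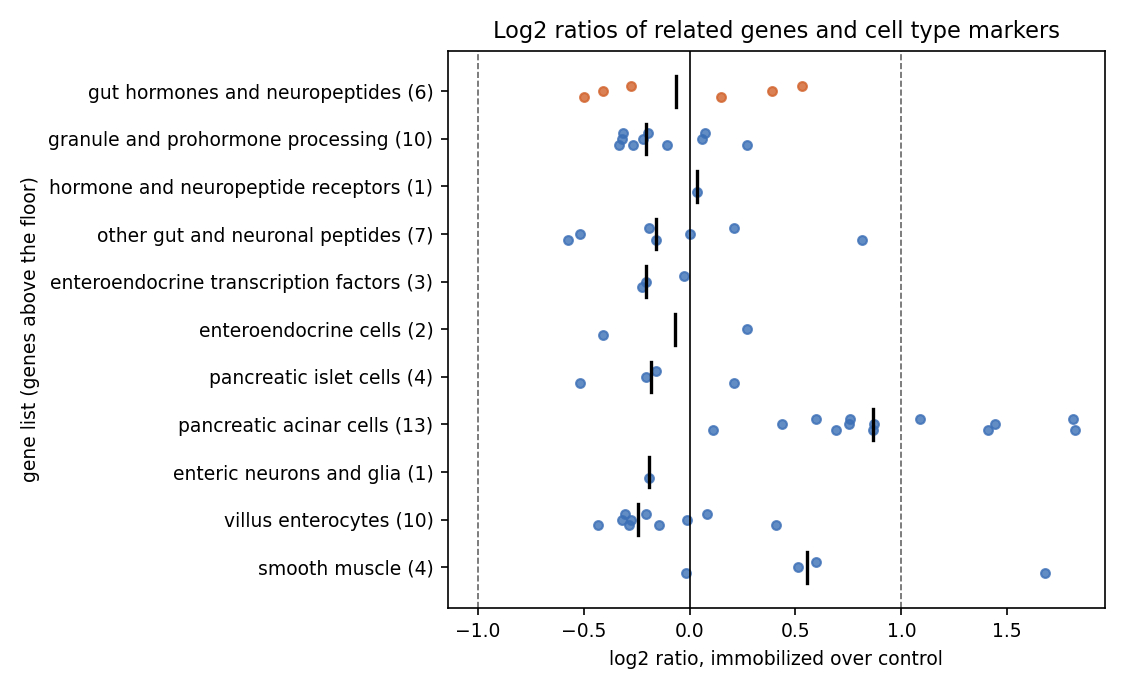
Log2 ratios, immobilized over control, of each gene above the floor on both arrays, by gene list, with the number of genes in brackets, a black bar at the median and dashed lines at 2-fold. The hormone genes (orange) spread over both sides of 0, while all 13 exocrine pancreas markers lie above 0.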

How the data were processed

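RNA of the duodenum from 1 control and 1 immobilized rat was measured on 2 arrays, grouped by sample title. The authors deposited 1 signal intensity per probe set on a linear scale. MAS5 is named in the submitters' processing notes, and the manufacturer's software, version 4.0, with filtering and normalization in the series' design text. From the deposited intensities, the scaling, the floor and log2 ratios were computed as described above. Symbols came from the array annotation, updated by gene ID for 6985 of 7006 probe sets with 1 symbol. A further 308 had several symbols and 1426 none. A gene's brightest probe set, by mean over both arrays, stood for the gene.

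With 1 array per group no test was possible, and the number of arrays limits the precision. The hormone genes and the gene lists (4 of related genes, 6 of cell type markers) were chosen with earlier results of these data known. Named were all probe sets of the hormone genes and, per list, genes past 2-fold or up to 5 farthest from 0. Other names were chosen after their values were seen. These were genes below the floor and some above it, among them Vamp2, Furin, Nmu, Guca2b, Fabp1, Anpep and Apob. Alternatives were signals as deposited, loess (span 0.3), quantile normalization, signal floors at percentiles 30 and 70, probe sets averaged, thresholds of 1.5-fold and 3-fold, and a pseudocount of 20 units without a floor. Scaling, counting and the technical SD were tested on simulated data. Python 3.11.15, numpy 2.4.6, pandas 2.3.3, statsmodels 0.14.6 and matplotlib 3.10.9 were used.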

Additional observations from a re-analysis of the deposited data

How the results depend on the processing

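No paired analysis was possible because each group holds 1 array. Of 146 values recomputed, 131 stayed within 1 technical SD or 1.5 times a count, and 15 moved. No ratio past 2-fold changed sign, but 2 list medians did after quantile normalization, to 0.01 for other peptides (4 higher, 3 lower) and to -0.02 for receptors. Most that moved did so with the floor. At the 30th percentile, 5 hormone genes were lower and 1 of them, Gcg, by 2-fold (1 probe set), and the genes lower numbered 11 for granule and processing, 9 for other peptides, 7 for transcription factors and 2 for receptors, with 5 receptors higher. At the 70th percentile, the Sst probe set at 2-fold dropped out, which left 0, granule and processing genes numbered 1 higher and 4 lower, and receptors 0 higher. With a 3-fold threshold 0 probe sets of the hormone genes passed. After quantile normalization the single receptor above the floor, Glp1r, was lower (0 higher, 1 lower). Signal over background limits Tac1, Gcg, Pyy and the receptors, whose signals lie near or under the floor of 39.9 units.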

Other observations

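Other peptide genes of the gut had signals above the floor for 7 of 21 with a probe set, 3 higher and 4 lower in the immobilized rat, none by 2-fold, with a median log2 ratio of -0.16. The direction of this list is not settled, since after quantile normalization 4 were higher and 3 lower, with a median of 0.01. Guca2a, the gene of guanylin, a luminal peptide that stimulates intestinal chloride and bicarbonate secretion, was 1.49-fold lower, with 2695 units in the control rat and 1808 in the immobilized rat. Guca2b, the gene of the related uroguanylin, was 1.12-fold lower, with 6497 and 5815 units, but had a log2 ratio of 0.05 after quantile normalization. Adm, the gene of the vasodilator adrenomedullin, was 1.76-fold higher, with 45.3 and 79.6 units, the first of them close to the floor. Nmu, the gene of neuromedin U, had nearly the same signal in both rats, 416.5 and 417.0 units.

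Some probe sets of genes better known from other tissues gave high signals in both rats. The prodynorphin gene Pdyn had 1088 and 951 units at probe set M32783cds_i_at but 9.0 and 12.7 units at its other probe set. The insulin genes showed the same kind of disagreement. Ins1 had 295 and 206 units at one probe set and at most 43.6 units at its other probe sets. Ins2 had 336 and 389 units at one probe set and at most 7.93 at the others. The suffix of the bright Pdyn and Ins2 probe sets marks an incomplete set of probes. Pax4, a factor of endocrine differentiation, had 52.3 units in the control rat and 13.8 in the immobilized rat at one probe set, while its other probe sets were below the floor on both arrays.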
